A study of Solanum lycopersicum x Solanum pennellii and Solanum lycopersicum with 17 samples.

Results

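The comparison set tomato carpels of IL-1_4 against carpels of IL-2_3, both sampled 7 days after pollination. It rests on 7 of the 17 arrays of the series, 3 of IL-1_4 and 4 of IL-2_3, and on all 10101 probe sets of the Affymetrix tomato array that are not spike-in or control sets. Its members were chosen by the line given in the sample labels, so no measured value chose them. Both lines are introgression lines of Solanum pennellii, a wild relative of tomato, in the cultivated background M82. The M82 parent, 6 arrays of the same tissue and age, is the control of the series, and 4 further arrays hold the line IL-1_1. Plants of every group shared greenhouse culture and handling, and no other treatment is labelled. The labels name no allele, and they do not say whether the carpels were homozygous for the segment or came from a cross to M82: the series calls its lines hybrids. They also do not say whether the arrays of a line came from separate plants or from pooled carpels. The p-values therefore measure the spread between arrays, which may be technical. That spread was pooled over all 17 arrays of the series, not taken from the 7 compared arrays alone. The median SD was 0.114 in IL-1_4 and 0.184 in IL-2_3, so the pooled value need not match either line.

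An introgression line carries a stretch of a wild species' chromosome in an otherwise cultivated genome. The first number in its name is the chromosome of that stretch, so IL-1_4 carries wild DNA on chromosome 1 and IL-2_3 on chromosome 2. Each line holds the cultivated form of the region that is wild in the other. Shortly after pollination the carpel wall and placenta divide and start to grow into the fruit, under auxin and gibberellin that follow fertilisation, while ethylene and abscisic acid signalling typically decline. An expression array reads a transcript through short probes designed on cultivated tomato, so a sequence difference under a probe can lower its signal without a change in RNA. Less RNA and weaker binding of a wild transcript cannot be told apart here, nor can fewer cells of a type and less RNA per cell.

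The deposited values are log2 signals, and the array medians of both lines lay between 9.98 and 10.02. The mean 3' minus 5' signal of 3 control genes, a measure of RNA quality, was 0.355 in IL-1_4 replicate 1. It was 0.117 and 0.102 in IL-1_4 replicates 2 and 3, 0.068 to 0.148 in IL-2_3 and 0.007 to 0.411 in M82. Correlation between arrays over all probe sets was 0.994 to 0.996 within IL-1_4, 0.973 to 0.992 within IL-2_3 and 0.966 to 0.985 between the lines. One IL-2_3 array, replicate 4, stood apart: on the first principal component of all 17 arrays, which held 45.7% of the variance, it lay at -22.71 and the other IL-2_3 arrays at 10.14 to 17.85. The mean log2 level of 7 carpel and ovary probe sets was 11.23 to 11.44 in IL-1_4, 10.61 to 11.26 in IL-2_3 and 10.75 to 11.62 in M82. These 7 were fsm1, AG1, TAGL1, AGL11 and the light-harvesting genes CAB4, CAB5 and CAB6A. CAB5 had means of 7.91 in IL-1_4 and 7.09 in IL-2_3, and the others had line means of 10.75 to 13.04. Some pollen and stamen probe sets, given next, read as high, so these levels do not identify the tissue. The mean of 8 pollen and stamen probe sets was 7.57 to 7.71 in IL-1_4, 7.65 to 7.73 in IL-2_3 and 7.51 to 7.61 in M82. These 8 were unlike: LAT61, PRO2 and TDR6 had line means of 11.76 to 12.84, while both PRO1 probe sets and the pollen receptor kinases PRK1, PRK2 and PRK3 had means of 3.97 to 6.91. Stig1, a stigma gene, lay at 4.11 to 4.34 and 4.08 to 4.61, close to the lowest values of the array. None of these marker probe sets passed the test between the lines.

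The lines differed strongly at few probe sets. In a limma fit over all 17 arrays, 156 of 10101 probe sets differed between IL-1_4 and IL-2_3 at a Benjamini-Hochberg adjusted p under 0.05, which is 1.54% of those tested. Of these, 83 (0.822%) were higher in IL-1_4 and 73 (0.723%) were higher in IL-2_3. The median size of the 156 differences was 1.37 on the log2 scale, and that of all differences tested was 0.14. A call needs a large difference, so these values only describe the scale. Changes of more than 4-fold made up 28 of the 83 and 22 of the 73, and changes of more than 16-fold made up 11 and 9. In all 156 the arrays of the lines did not overlap, which was also true of 17.2% of all probe sets tested, 9.55% with IL-1_4 higher and 7.64% with IL-1_4 lower. An unadjusted p under 0.05 was reached by 871 probe sets, or 8.62%. The call ended between an adjusted p of 0.0494 for the last probe set inside and 0.0519 for the first outside. Without IL-2_3 replicate 4 the count was 144. It was 285 with the leading axis of the residuals as a covariate and 1907 with a weight for each array.

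**Figure D1:**
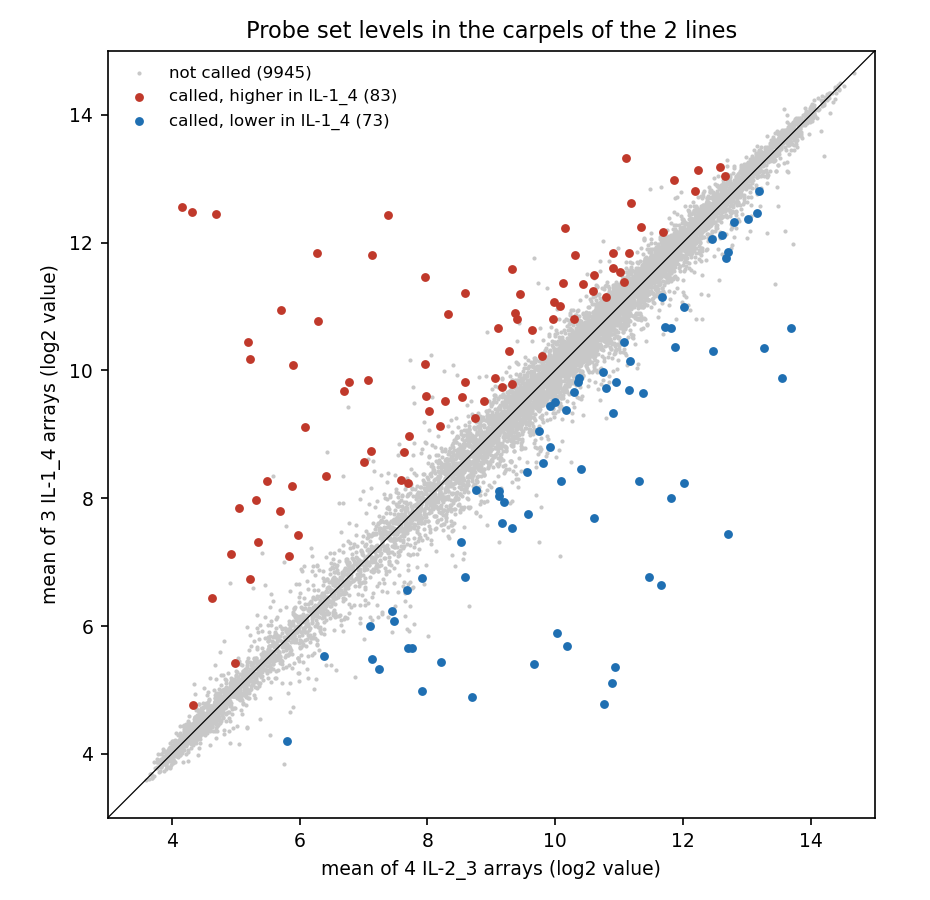
Mean log2 signal of each of 10101 probe sets in IL-2_3 (horizontal, 4 arrays) and in IL-1_4 (vertical, 3 arrays), with the 156 called probe sets coloured by direction. Most points lie on the diagonal, and the called sets leave it on both sides, 83 above and 73 below.

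The M82 arrays show how far each line lay from the cultivated background at the called probe sets. Of the 156 probe sets, 58 were also called between IL-1_4 and M82, where 0.644% of those tested were called, and 77 between IL-2_3 and M82, where 0.901% were called. None was called in both. In the 58, IL-1_4 was lower than M82 at 48 and higher at 10, and the median distance of IL-2_3 from M82 was 0.09 on the log2 scale. In the 77, IL-2_3 was lower than M82 at 64 and higher at 13, and the median distance of IL-1_4 from M82 was 0.10. Over all probe sets tested those median distances were both 0.09. A probe set at which both lines left M82 alike would tend not to be called between the lines. The lack of shared calls and the short distances thus follow partly from how the 156 were chosen. Of 65 calls between IL-1_4 and M82, 7 were not called between the lines, and of 91 between IL-2_3 and M82, 14 were not. Thus 112 of these 135 probe sets were low in the line that left the M82 level and 23 were high. The share of all probe sets tested that lay below M82 was not set beside this, so these counts only describe the 135. Among the 50 differences of more than 4-fold, 42 were low against M82, 7 were high and 1 was called against M82 in neither line. The remaining 21 of the 156 were called against M82 in neither line, had a median size of 0.63, and lay on opposite sides of M82 in the 2 lines in every case. With both lines on one side of M82, 1 of them would lie farther from M82 than from the other line and would tend to be called. The opposite sides thus follow largely from how the 21 were chosen. They do not show that both lines moved: gMDH lay at -0.47 in IL-1_4 and 0.05 in IL-2_3 against M82. The 3 comparisons share arrays, 2 of them the M82 arrays, so their calls are not independent of each other.

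**Figure D2:**
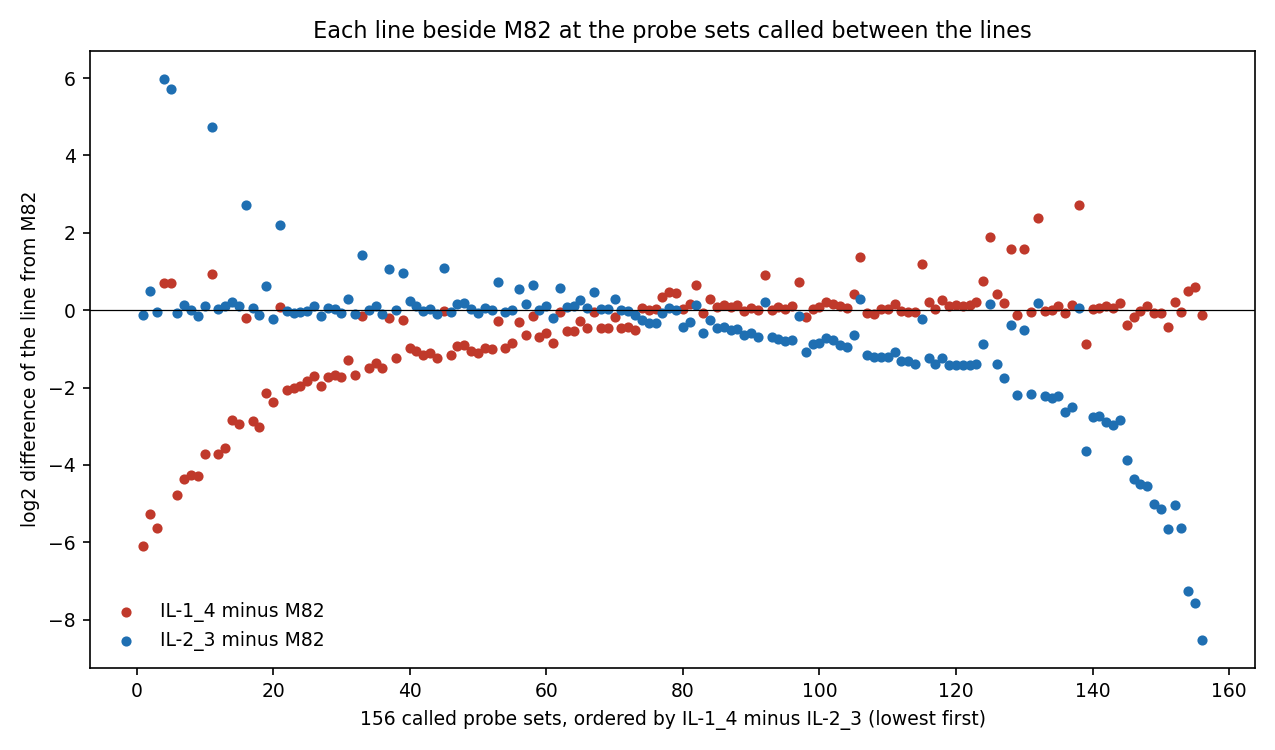
Log2 difference of each line's mean from the M82 mean (vertical; IL-1_4 in red, IL-2_3 in blue) at the 156 called probe sets, ordered along the horizontal axis from the lowest to the highest difference of IL-1_4 from IL-2_3. At the left end IL-1_4 mostly lies below 0 and IL-2_3 near 0, at the right end IL-2_3 mostly lies below 0 and IL-1_4 near 0, and a few points of either line lie above.

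Only 909 of the 10101 probe sets carry a gene symbol in the platform annotation, and 10 of these passed the test (1.1%), 3 higher in IL-1_4 and 7 higher in IL-2_3. Of these, 7 have a named product, in oxylipin or terpene metabolism, nuclear transport, ethylene or auxin response, transcription or peroxisomal metabolism, and 3 carry only a locus symbol.

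The largest named difference was MTS1, a monoterpene synthase of the enzyme family that makes volatile terpenes. Its log2 signal was 5.05, 5.40 and 4.88 in the 3 IL-1_4 arrays and 10.88, 11.15, 10.65 and 10.86 in the 4 IL-2_3 arrays. All IL-1_4 arrays were far below all IL-2_3 arrays, and the M82 arrays ran from 9.83 to 10.92, beside those of IL-2_3. The difference was -5.78 ± 0.29 (SE, limma adjusted p = 1.76e-09), which is 54.8-fold lower in IL-1_4. The other 19 carotenoid and isoprenoid probe sets, of which SSTLE1, annotated as a sesquiterpene synthase, differed by 0.81 (limma adjusted p = 0.779), gave no call.

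opr2 encodes a 12-oxophytodienoate reductase, of the family that reduces the jasmonate precursor. Its signal was 4.99, 4.75 and 4.92 in IL-1_4 and 8.57, 8.65, 8.86 and 8.71 in IL-2_3, with M82 at 8.38 to 8.82. The spread within each line was small beside the gap, and IL-1_4 was the line that differed from M82. The difference was -3.81 ± 0.15 (SE, limma adjusted p = 1.05e-10), or about 14-fold. Its relatives, named after their values were seen, gave no such gap: OPR1 differed by -0.26 (95% interval -1.14 to 0.63) and OPR3, the reductase that serves jasmonate synthesis, by -0.05 (-0.35 to 0.25). Both were abundant, at means of 10.28 and 11.77 in IL-1_4.

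RAN2A encodes a Ran GTPase, the switch that gives direction to transport through the nuclear pore. It read 10.28, 10.51 and 10.28 in IL-1_4 and 13.24, 13.35, 13.24 and 13.25 in IL-2_3, and M82 read 13.13 to 13.56. IL-1_4 was again the low line, although its signal stayed above the array median. The difference was -2.92 ± 0.13 (SE, limma adjusted p = 3.7e-10), or 7.56-fold. The near-identical family members RAN1 and RAN2B differed by 0.11 (95% interval -0.04 to 0.26) and -0.02 (-0.30 to 0.25) at means of 13.43 and 12.90 in IL-1_4. Probe sets of such close relatives can share transcripts, so the split of signal among them is uncertain.

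ER24, listed among the ethylene-responsive genes, encodes a transcriptional coactivator of the MBF1 family. Its arrays read 5.17, 5.82 and 5.32 in IL-1_4 and 8.26, 7.74, 8.83 and 8.01 in IL-2_3. Every IL-1_4 array lay below the M82 range of 7.11 to 8.07, and IL-2_3 straddled the top of it. The difference was -2.78 ± 0.25 (SE, limma adjusted p = 2.38e-06), or 6.84-fold. The other 22 probe sets of the ethylene response factor list gave no call. Among them ERF4 differed by -0.02 and PTI4 by -0.72 (limma adjusted p = 0.997 and 0.845).

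ARF3 encodes an auxin response factor. In Arabidopsis the gene of that name, ETTIN, patterns the carpel. One probe set, Les.2313.1.A1_at, read 10.43, 9.98 and 10.12 in IL-1_4 and 5.84, 4.99, 5.10 and 4.99 in IL-2_3, with M82 at 9.76 to 10.62. Here IL-2_3 was the line that left the M82 level, and the difference was 4.95 ± 0.25 (SE, limma adjusted p = 1.65e-09), or 30.8-fold higher in IL-1_4. The second ARF3 probe set, Les.2313.2.A1_at, did not show it: its means were 9.38 and 9.53, and the difference was -0.15 (95% interval -0.63 to 0.33, limma adjusted p = 0.903). The gap was thus seen on one of the gene's 2 probe sets. No Aux/IAA probe set was called, and IAA17, the farthest from 0, differed by 0.80 (-0.66 to 2.26).

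RPB2, the second-largest subunit of RNA polymerase II, was 11.95, 11.71 and 11.85 in IL-1_4 and 10.96, 11.39, 10.93 and 11.33 in IL-2_3. The groups were apart by a small gap, and IL-1_4 lay within the M82 range of 11.61 to 12.06. The difference was 0.68 ± 0.14 (SE, limma adjusted p = 0.0142). It lost the call in a fit of the 7 arrays alone (adjusted p = 0.0835) and without any one of IL-1_4 replicates 1 and 3 and IL-2_3 replicates 1 and 3 (adjusted p = 0.0542 to 0.101).

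gMDH, the glyoxysomal malate dehydrogenase of fatty acid breakdown, was 11.21, 11.12 and 11.13 in IL-1_4 and 11.79, 11.67, 11.82 and 11.41 in IL-2_3. The lowest IL-2_3 array still lay above every IL-1_4 array. The difference of -0.52 ± 0.12 (SE, limma adjusted p = 0.0303) was the smallest of the 10. It was no longer called in the 7 arrays alone (adjusted p = 0.0993), without any one IL-1_4 array or without any one of IL-2_3 replicates 1 to 3 (adjusted p = 0.0682 to 0.152).

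The other 3 named genes carry only a locus symbol, and no role is given for them here. LOC543598 read 5.60, 5.82 and 5.52 in IL-1_4 and 7.63, 8.15, 7.88 and 7.40 in IL-2_3. It was the one named gene of the 10 that was called higher than M82 in a line: IL-2_3 exceeded M82 by 2.19, and the lines differed by -2.12 ± 0.32 (SE, limma adjusted p = 0.00115). LOC543597 read 8.73, 8.33 and 7.74 in IL-1_4 and 5.10, 6.17, 5.35 and 5.34 in IL-2_3, a difference of 2.77 ± 0.54 (SE, limma adjusted p = 0.0115). M82 ranged widely, from 7.56 to 10.34, and the call was lost without IL-1_4 replicate 1 (adjusted p = 0.0869) or replicate 2 (adjusted p = 0.062).

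LOC543892 was 5.72, 6.62 and 6.37 in IL-1_4 and 7.11, 7.66, 7.27 and 7.73 in IL-2_3 on the probe set Les.4328.1.S1_at. Its difference of -1.21 ± 0.26 (SE, limma adjusted p = 0.0224) was called against M82 in neither line. A second probe set of the gene read 4.25 and 4.23, near the lowest values of the array, and differed by 0.02 (95% interval -0.15 to 0.19). The call on the first was lost in the 7 arrays alone (adjusted p = 0.0735) and without IL-1_4 replicate 1 or 3 or IL-2_3 replicate 2 or 4 (adjusted p = 0.0692 to 0.175).

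**Figure D3:**
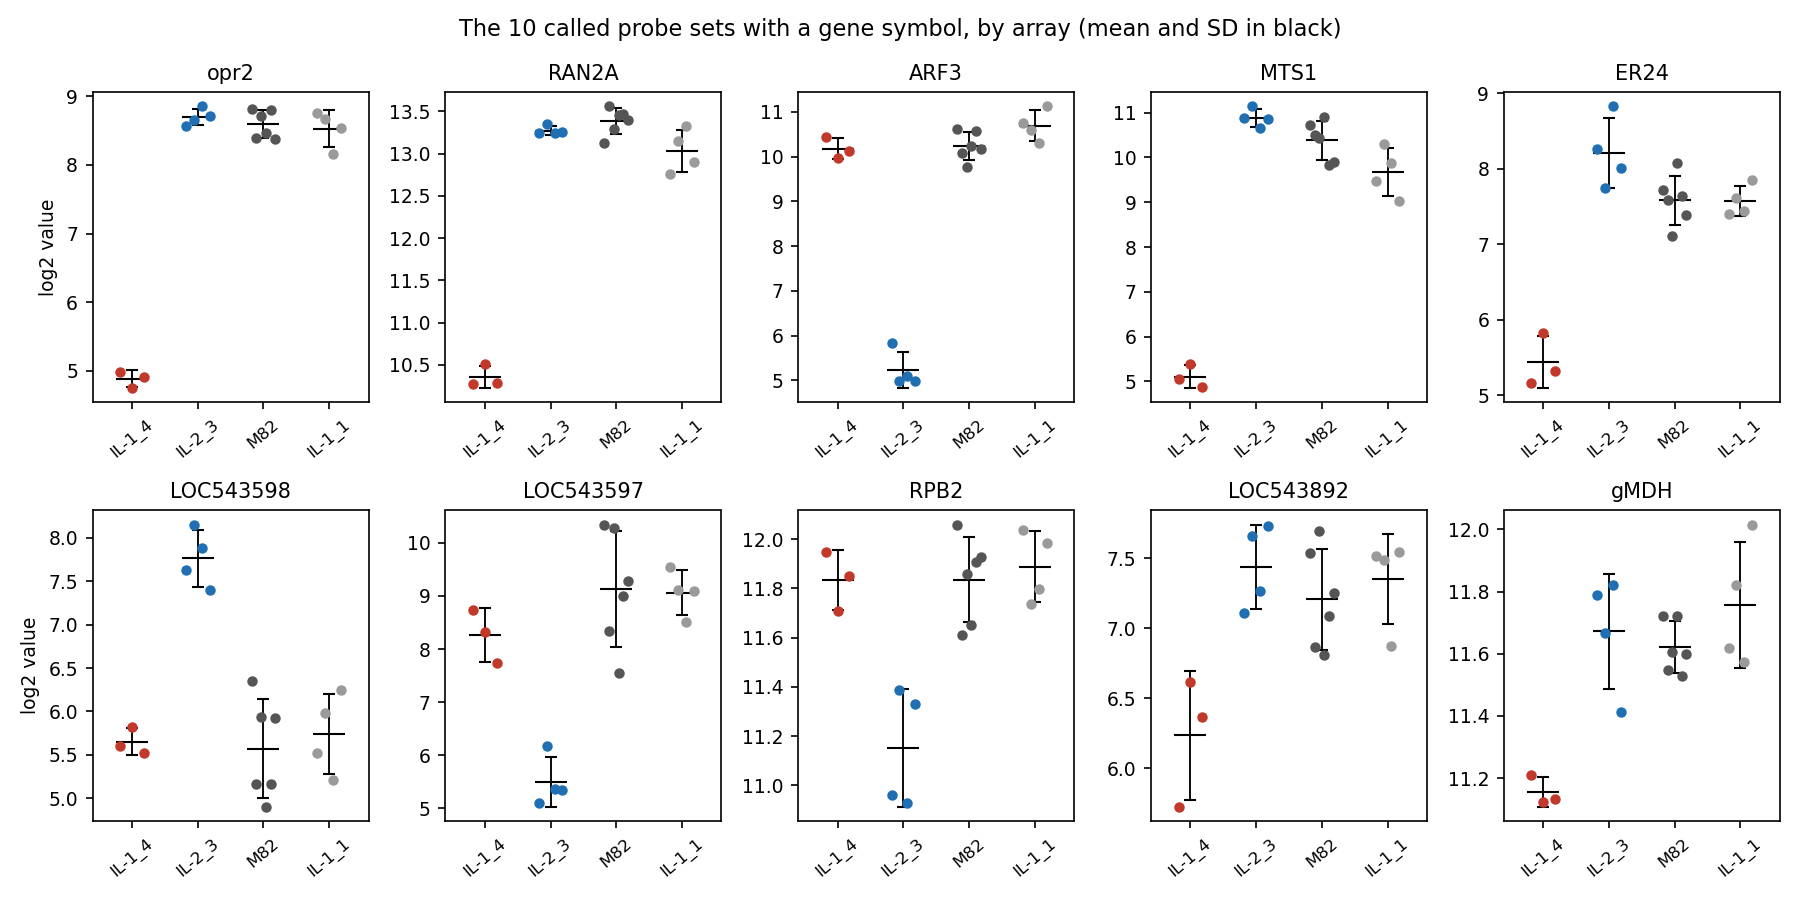
Log2 signal on every array of IL-1_4, IL-2_3, M82 and IL-1_1 for the 10 called probe sets with a symbol, 1 panel a gene, with each group's mean and SD in black. The vertical axes differ between panels and do not start at 0. IL-1_4 is the low line at opr2, RAN2A, MTS1 and ER24, and IL-2_3 at ARF3, LOC543597 and RPB2.

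The other 146 called probe sets have no symbol in the annotation and are known by probe set ID. The largest of all differences was Les.2294.2.A1_a_at, at 12.82, 12.43 and 12.43 in IL-1_4 against 4.02, 4.24, 3.97 and 4.40 in IL-2_3. M82 read 12.28 to 13.17, so IL-2_3 alone was near the lowest values of the array. The lines differed by 8.40 ± 0.23 (SE, limma adjusted p = 2.09e-12). Les.4345.4.A1_at followed, at 12.47, 12.58 and 12.40 against 4.25, 4.53, 4.28 and 4.20, a difference of 8.17 ± 0.51 (SE, limma adjusted p = 2.8e-08). The IL-2_3 arrays again lay far below M82, which read 10.15 to 12.92. In the other direction Les.457.2.A1_at read 4.68, 5.11 and 4.56 in IL-1_4 and 10.68, 11.14, 10.74 and 10.46 in IL-2_3. It differed by -5.97 ± 0.33 (SE, limma adjusted p = 5.87e-09). Les.2253.2.A1_at read 5.09, 5.74 and 5.24 against 10.99, 11.02, 11.10 and 10.65 and differed by -5.58 ± 0.21 (SE, limma adjusted p = 6.6e-11). At both, M82 lay beside IL-2_3.

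Probe sets whose IDs share a cluster number were mostly designed on sequences of one transcript cluster, and they often gave different answers. Of 54 clusters with a call and more than 1 probe set tested, 44 had a single call, 10 had 2 or more and 8 had every probe set called. Over all clusters with more than 1 probe set, 65 of 3813 probe sets (1.7%) were called. The 65 partner probe sets without a call had a median size of 0.16, and 53 of them lay under 0.5. Among 20 clusters with a difference of more than 4-fold, 12 held a partner under 0.5 and 5 had every partner called. The partner of the largest difference, Les.2294.2.A1_at, had means of 12.74 and 12.32 and differed by 0.42 (95% interval -0.02 to 0.86). Cluster Les.4345 held 6 probe sets and 2 calls, Les.4345.4.A1_at and Les.4345.4.A1_x_at, at 8.17 and 7.76. Its uncalled probe sets differed by 0.02 to 0.61. Likewise Les.457.1.S1_at differed by 0.38 (-0.39 to 1.15) and Les.2253.1.S1_at by 0.37 (0.03 to 0.70), opposite in sign to their partners and not called (limma adjusted p = 0.814 and 0.531).

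Other clusters moved as a whole, and the following were picked after their values were seen. All 3 probe sets of cluster Les.218 were lower in IL-1_4, by -3.80 ± 0.43, -5.0 ± 0.25 and -5.27 ± 0.31 (SE). IL-2_3 read 11.45 to 11.79 on the second of them, against 6.26 to 7.03 in IL-1_4 and 5.34 to 6.39 in M82, so IL-2_3 was high against both. Both probe sets of cluster Les.4291 were higher in IL-1_4, by 5.22 ± 0.51 and 3.49 ± 0.52 (SE), where IL-1_4 lay at the M82 level. Outside such clusters, LesAffx.69324.1.S1_at, at 7.75 to 8.17 in IL-1_4, 5.08 to 5.66 in IL-2_3 and 4.85 to 5.79 in M82, was a case in which IL-1_4 was the high line; the other probe set of its cluster was not called.

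Of 25 lists of named genes by pathway, which together hold 330 of the 909 named probe sets, 20 held no call and 5 held 1 each: MTS1, opr2, RAN2A, ER24 and ARF3. That is 1.52% of the listed probe sets, near the 1.54% called over all tested. Of 39 uncalled list members picked for their small p, 20 were called with a weight for each array, the setting that gave 1907 calls in all. Over all probe sets tested, 53.2% were higher in IL-1_4. Apart from opr2, the jasmonate, oxylipin and wound list had 17 of 21 probe sets lower in IL-1_4, and no call. Its median was -0.25 against 0.01 over all named probe sets. The gene ARG2 entered this count with several probe sets (-1.41, -1.22 and -1.31). The farthest of the 21 from 0, twi1, went the other way, by 1.69. The abscisic acid and water stress list had 9 of 10 lower, with a median of -0.40, and no call. In it NCED1, the rate-limiting enzyme of abscisic acid synthesis, was 7.80 to 8.19 in IL-1_4 and 8.08 to 10.40 in IL-2_3, and AREB1, a transcription factor of abscisic acid response, was 7.45 to 7.78 and 8.0 to 8.96. Their differences were -1.38 ± 0.65 and -0.82 ± 0.37 (SE, limma adjusted p = 0.577 and 0.559). The arrays of AREB1 did not overlap and those of NCED1 did, and both were called with array weights (adjusted p = 0.0129 for AREB1 and 0.00268 for NCED1). AREB1 was also called with the leading residual axis as a covariate (adjusted p = 0.00259).

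No list of ethylene synthesis (16 probe sets), ethylene receptors and signalling (15) or gibberellin (6) held a call. In each list the member with the smallest p had an interval within 2-fold: ACS3, an ACC synthase near the lowest values of the array, differed by 0.15 (95% interval -0.04 to 0.34). EIL1, an EIN3-like transcription factor of ethylene signalling, differed by -0.33 (-0.80 to 0.14), and CPS, an early enzyme of gibberellin synthesis, by -0.34 (-0.76 to 0.08). The next members were less precise. ACS5, another ACC synthase, ranged from 4.93 to 7.65 in IL-2_3 and differed by -1.02 (-2.58 to 0.55). EIL3 differed by -0.67 (-1.79 to 0.45), and GA3ox1, which makes active gibberellin, by 0.75 (-0.41 to 1.91). For these 3 the intervals hold both no difference and differences of 2-fold, so the data do not show that the lines were alike there.

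Growth genes also gave no call in the main fit, which had no weights and no replicate block. The cell cycle and early fruit growth list had 13 of 17 probe sets higher in IL-1_4, with a median of 0.14, where 53.2% of all probe sets tested were higher. Its leading member, the mitotic kinase CDKB1, differed by 0.46 (95% interval -0.09 to 1.01). Of 46 cell wall probe sets 27 were higher in IL-1_4, with a median of 0.06. PME2.1, a pectin methylesterase, was 9.30 to 9.72 in IL-1_4 and 8.45 to 9.01 in IL-2_3, without overlap, and differed by 0.85 ± 0.27 (SE, limma adjusted p = 0.249). It was called with array weights (limma adjusted p = 0.00513) and with the replicate block (limma adjusted p = 0.0414). MAN2, a mannanase, differed by 1.54 ± 0.70 (SE, limma adjusted p = 0.56), with overlapping arrays, and TBG2, a beta-galactosidase, by -0.45 ± 0.19 (SE, limma adjusted p = 0.523).

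The lipid transfer list held the largest named difference without a call. Dea1, a proline-rich protein with a lipid-transfer-like domain, was 10.16, 10.12 and 10.23 in IL-1_4 and 8.66, 8.34, 7.99 and 5.92 in IL-2_3. The lowest of these was replicate 4, the array that stood apart. Dea1 differed by 2.44 ± 0.71 (SE, limma adjusted p = 0.158), and by 1.82 with array weights, where it was called (adjusted p = 0.0115).

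No floral identity or light gene was called. AG1, the tomato AGAMOUS gene for stamen and carpel identity and one of the carpel markers, was 12.03, 11.91 and 12.12 in IL-1_4 and 10.37, 10.62, 10.48 and 11.52 in IL-2_3. The highest of the latter was again replicate 4. The difference of 1.27 ± 0.32 (SE, limma adjusted p = 0.0741) fell short of the threshold, and M82 lay at 11.40 to 12.63. It was 1.53 and called without IL-2_3 replicate 4 (adjusted p = 0.0146), and it was also called without M82 replicate 1 (adjusted p = 0.0429). FALSIFLORA, the tomato LEAFY gene, differed by 0.25 ± 0.12 (SE) at a level near the lowest of the array. Of 8 light harvesting and photosynthesis probe sets 7 were higher in IL-1_4, as were 53.2% of all probe sets tested. The 8 had a median of 0.21 and no call. COP1, a repressor of light responses, differed by -0.31 (95% interval -0.77 to 0.15).

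In the remaining lists the members nearest to a call differed by less than 0.5. The antioxidant genes CAT2, a catalase, and DHAR1, a dehydroascorbate reductase, were lower in IL-1_4 by -0.21 ± 0.08 and -0.26 ± 0.11 (SE, limma adjusted p = 0.478 and 0.495), without overlap between the lines. CCR1, a cinnamoyl-CoA reductase of lignin synthesis, differed by -0.45 ± 0.21 (SE) and HT3, a hexose transporter, by 0.24 ± 0.13 (SE). Hsp90-1, a chaperone, differed by 0.19 ± 0.10 (SE). TKN3, a knotted-like homeobox gene of the meristem list, was the exception at 0.72 (95% interval -0.48 to 1.92).

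**Figure D4:**
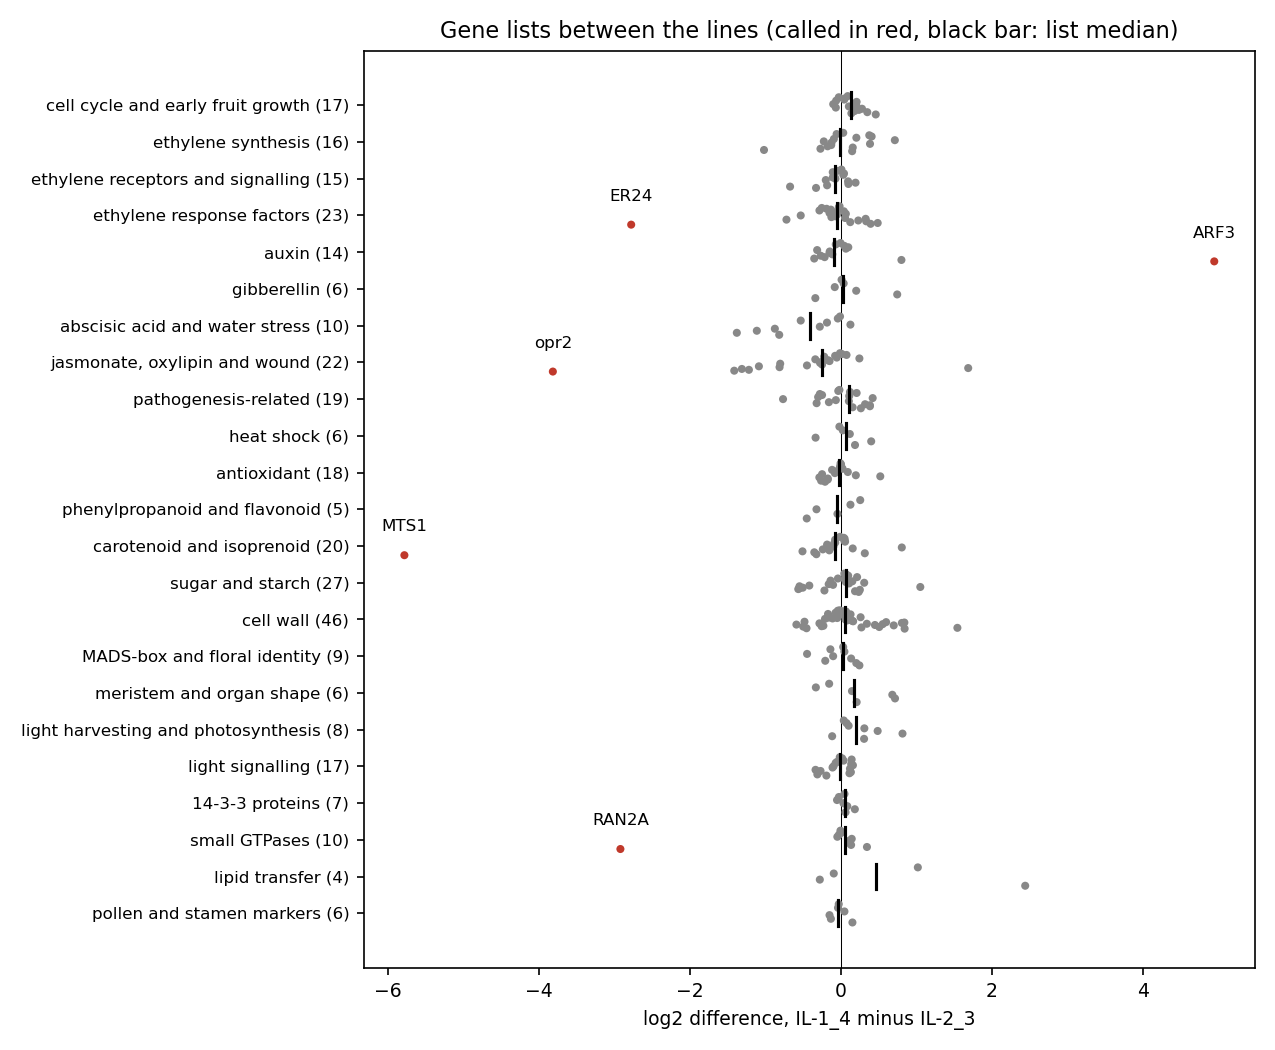
Log2 difference of IL-1_4 from IL-2_3 for every probe set of the gene lists with at least 4 probe sets, 1 row a list (number of probe sets in parentheses), with a black bar at the list median and called probe sets in red. The medians lie between -0.40 and 0.46, and the 5 called probe sets stand alone in their rows.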

How the data were processed

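Total RNA of carpels was labelled with biotin in a single cycle and hybridised to Affymetrix tomato arrays, 1 array a sample, per the labels' protocols. The authors deposited 1 table of normalized log2 signals for 17 arrays; the affy package is named, per the submitters' processing notes, while for its version, background correction and summarization the entry is: not given in the sources used here. Base 2 is inferred from the range, 3.31 to 14.75. All columns were mapped by title, leaving 0 unused. Of 10209 probe sets 108 controls were left out. No depth or interval from counts applies to arrays, whose number limits the precision.

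limma 3.58.1 in R 4.3.3 fitted 1 mean per line over all 17 arrays, sharing the spread, with a moderated two-sided test and Benjamini-Hochberg adjustment over 10101 probe sets. The fit was run on simulated data with independent noise at each probe set and array. Such data lack the variation that probe sets share on real arrays, so they do not give the error rate here. Calls are at an adjusted p under 0.05, and intervals are 95% intervals of the fit, unadjusted. Symbols come from GEO's platform annotation, which can be old (909 probe sets, 802 distinct symbols). Of the 909 probe sets, 207 carry only a locus number. The rule for names took all called genes with a symbol, the 2 largest unnamed calls in each direction, and from each gene list up to 4 calls or the 2 smallest p. The lists match patterns on symbols, and 13 false matches were dropped after the names were seen. The comparison and the lists were chosen with earlier results of these data known. Same-numbered arrays of the lines did not deviate together (correlations 0.005, 0.053 and -0.012), and the main fit did not pair them. These correlations alone do not settle whether the numbers mark a shared batch. Alternatives changed the normalization, filter, variance model, arrays, covariates and weights.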

Additional observations from a re-analysis of the deposited data

Results flagged for a closer look

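Of 85 groups tested over 71 probe sets, 4 held an array far from the others of its group, and chance gives about 1 in 20. Only IL-2_3 and, for the leading probe sets, M82 were tested; IL-1_4, with 3 arrays, was not, so the absence of IL-1_4 here says nothing about its spread. At RAN2A, IL-2_3 replicate 2 read 13.348 and the next array 13.252. At ARF3 (Les.2313.1.A1_at), IL-2_3 replicate 1 read 5.841 and the next array 5.10. IL-2_3 replicate 4, the array that stood apart on the first principal component, read 4.353 at FALSIFLORA, where the next array read 4.199, and 14.078 at TGAS118, a gibberellin-regulated transcript, where the next read 14.336. The RAN2A and ARF3 calls held without the array in question.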

How the results depend on the processing

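The differences of opr2, RAN2A, ARF3 (Les.2313.1.A1_at), MTS1, ER24, LOC543598 and the 4 largest unnamed probe sets kept their direction and call in every setting that held them, of 26 run. Of the 156 calls, 99 were kept with each of the 17 arrays left out in turn, and 81 in all settings. Leaving out 1 array gave 111 to 182 calls, 56 to 95 higher and 54 to 87 lower in IL-1_4, 45 to 63 shared with IL-1_4 against M82 and 57 to 83 with IL-2_3 against M82. With the leading residual axis as a covariate these were 285, 143, 142 and, for IL-1_4 against M82, 93. With array weights they were 1907, 1123, 784, 134 and 376. The cause of either rise was not tested. Without 3 arrays that lay apart on the first principal component (IL-2_3 replicate 4 and the first of M82 and of IL-1_1), a choice made after seeing the data, the count was 185. The replicate block gave 129 calls, 96 of them among the 156, and RPB2 and gMDH lost theirs in it (adjusted p = 0.175 and 0.0818), while Dea1 and PME2.1 were called in it (0.018 and 0.0414). AG1 was called in 6 of 26 settings. Uncalled differences near 0 changed sign: PRK1 (-0.05) and Stig1 (0.012) with array weights, TGAS118 with array weights (-0.036) and with the block, without IL-2_3 replicate 4 and without the 3 arrays (-0.044 each; -0.044 to 0.047 with 1 array left out), and the second LOC543892 probe set without IL-1_4 replicate 3 (-0.008 to 0.04 with 1 array left out). With 3 and 4 arrays, differences at the lowest signals are limited by the floor of the array.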
